A study of Homo sapiens with 6 samples.

Results

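NCCRP1 and the 5 human F-box genes of the FBA type, FBXO2, FBXO6, FBXO17, FBXO27 and FBXO44, were followed through 6 transcriptomes of the oesophageal squamous carcinoma line KYSE150. These 6 genes were taken by name, and each was found by its RefSeq symbol among the 40448 Entrez gene IDs in the deposited tables. The libraries came from stable transfectants of KYSE150: 3 mock clones (numbers 1, 4 and 5) carrying the pIRES2-EGFP vector, and 3 clones (numbers 1, 6 and 17) carrying a vector for human NCCRP1. The 6 clones share the parent line and, per the labels, had been through stable transfection. The promoter and backbone of the NCCRP1 vector and the extent of its insert were not given in the sources used here. Every library was 1 clone, so clone-to-clone differences and the effect of the transgene enter the same values, and a p-value here reflects no more than the spread among 6 libraries.

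F-box proteins are the exchangeable substrate receptors of SCF ubiquitin ligases: the F-box binds the adaptor SKP1, which bridges to the scaffold CUL1 and the RING protein RBX1, and a second domain binds the substrate. In the FBXO2 family that second domain is the F-box-associated (FBA) domain. In FBXO2, FBXO6 and FBXO27 it is known to bind N-glycans, which ties these ligases to the disposal of misfolded or mislocated glycoproteins. NCCRP1 carries an FBA domain too, and is known as a gene of stratified squamous epithelia, oesophagus included. The comparison asked whether the F-box genes responded when NCCRP1 was expressed, and whether they followed its level from clone to clone.

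The stretch of coding sequence that the 6 genes share best shows how far apart they lie. It is the 90-base window, free of gaps, with the most columns identical in all 6 genes after codon alignment of GENCODE v29 coding sequences (GRCh38). It is shown because reads placed on the wrong family member would move the values below. Capitals mark the 37 columns in which all 6 genes have the same base, and each sequence runs 5′ to 3′ on the coding strand.
NCCRP1: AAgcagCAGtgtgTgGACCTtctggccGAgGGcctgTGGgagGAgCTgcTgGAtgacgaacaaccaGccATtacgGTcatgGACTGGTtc
FBXO2: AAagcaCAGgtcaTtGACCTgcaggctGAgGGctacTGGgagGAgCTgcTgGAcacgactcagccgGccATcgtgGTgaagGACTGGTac
FBXO6: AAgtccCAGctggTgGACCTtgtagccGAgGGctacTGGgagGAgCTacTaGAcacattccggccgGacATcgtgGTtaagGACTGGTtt
FBXO17: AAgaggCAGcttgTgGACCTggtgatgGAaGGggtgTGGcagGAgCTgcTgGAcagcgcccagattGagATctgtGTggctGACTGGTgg
FBXO27: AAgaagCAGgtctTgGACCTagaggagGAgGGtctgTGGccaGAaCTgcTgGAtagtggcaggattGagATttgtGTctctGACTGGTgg
FBXO44: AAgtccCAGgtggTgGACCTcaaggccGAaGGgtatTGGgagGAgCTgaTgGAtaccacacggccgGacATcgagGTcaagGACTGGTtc

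In NCCRP1 the window spans coding bases 463 to 552, counted from the A of the start codon. Between 54 (FBXO27) and 63 (FBXO44) of its 90 bases were identical to NCCRP1. Over the whole alignment NCCRP1 was 43.4% (FBXO17) to 50.4% (FBXO2) identical to the F-box genes, which were 51.6% to 77.3% identical to one another. The longest run of identical bases between the coding sequences of NCCRP1 and an F-box gene was 17 bases, TGGGAGGAGCTGCTGGA in FBXO2, and no 50-base word of the NCCRP1 transcript occurred in any of the other transcripts.

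FBXO6 and FBXO44 were the exception within the family. They shared 62 words of 50 bases, all from a 111-base run near the 5′ end of both coding sequences, where the F-box is encoded (bases 40 to 150 of FBXO6 and 19 to 129 of FBXO44). The run is printed because reads lying inside it fit both genes, so the values of this pair are uncertain to the extent that the authors' counting split such reads.
FBXO6 and FBXO44: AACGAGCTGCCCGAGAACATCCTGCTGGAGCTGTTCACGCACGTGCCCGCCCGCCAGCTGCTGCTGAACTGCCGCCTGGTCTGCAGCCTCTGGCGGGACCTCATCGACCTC

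FBXO2 and FBXO44 lie head to head on chromosome 1 and their RefSeq gene models overlap by 23 bases, with FBXO6 as the next gene. FBXO17 and FBXO27 are immediate neighbours on chromosome 19, where NCCRP1 also lies, with ACP7 and PAK4 between FBXO27 and NCCRP1. Without strand information the reads of the 23 bases shared by FBXO2 and FBXO44 cannot be told apart.

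The libraries held 12477 to 12821 genes above 0 and stood at an estimated 12290000 to 18070000 reads, read from whole-read steps of microRNA genes. Of the markers checked, all 12 squamous genes were tested, 11 of them above 0 in every library, with summed levels of 1780 to 2210 RPKM without and 1210 to 2430 RPKM with NCCRP1 (reads per kilobase of transcript, scaled to library size). The 5 leukocyte markers, 4 of 5 endothelial markers (PECAM1, VWF, KDR and TEK) and 5 of 6 fibroblast markers (COL1A2, COL3A1, DCN, LUM and PDGFRB) were listed at 0 in all 6 libraries. The endothelial markers summed to 0 RPKM in each mock library and to at most 1.58 RPKM in an NCCRP1 library, and the fibroblast markers to 2.49 to 5.96 RPKM over all libraries. Simple-epithelial keratins summed to 389 to 501 RPKM without and 551 to 722 RPKM with NCCRP1, ranges that did not overlap, with KRT19 and KRT20 listed at 0 throughout. That sum comes from 3 keratins. Over all tested genes the groups did not overlap for 12.8%, with 5.71% higher and 7.05% lower in NCCRP1 clones. Only the 12 squamous, 3 simple-epithelial and 1 fibroblast marker entered the test between groups, and none of them passed. No endothelial or leukocyte marker was tested. The part of the markers in the results below was not tested either.

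NCCRP1 was listed at 0 in each mock library. Clone 1 of the transfectants had a log2 RPKM of 6.19, clone 6 of 8.07 and clone 17 of 6.71. The groups did not overlap, and clone 6 stood highest, at 269 RPKM against 72.8 in clone 1 and 105 in clone 17, a range of 3.7-fold among the transfectants. Among all genes of its library NCCRP1 ranked 1175th in clone 1, 300th in clone 6 and 724th in clone 17. With the estimated depths and the 1978-base GENCODE transcript, these levels stand for roughly 2600, 8440 and 3030 reads, whereas 1 RPKM in the mock libraries would be 24.3 to 31.6 reads. No deposited value lay below 0 on the log2 scale, so a listed 0 may stand for any level up to 1 RPKM. It can also be a missing estimate, since TPT1 and UBB, which every cell uses, were listed at 0 in all 6 libraries. Endogenous NCCRP1 in the mock clones was therefore not measurable here, and no fold change is given. The coding part makes up 41.9% of the transcript, and reads of the transgene and of the chromosomal gene cannot be told apart.

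By limma's test on log2 RPKM, with Benjamini-Hochberg adjustment over all 12737 genes tested, the difference of listed values for NCCRP1 was 6.99 (SE 0.43, limma adjusted p = 0.00449). NCCRP1 met the filter of at least 3 libraries above 0 only through the clones that carry its vector, and its mock values have no spread, so this p describes the labelled design and is no independent result. The size of the difference depends on where a 0 is placed, and was 10.31 on the log2(RPKM + 0.1) scale. In all, 13 genes, or 0.102% of those tested, passed that threshold of 0.05, 0.0707% with higher and 0.0314% with lower levels in the NCCRP1 clones. The exact two-sided permutation test of 3 against 3 values gave p = 0.1, the smallest that this design allows. Without mock clone 1, 4 or 5 the limma adjusted p of NCCRP1 was 0.0626, 0.0507 and 0.0549 at the same difference. Without NCCRP1 clone 1, 6 or 17 the limma adjusted p was 3.58e-05, 8.99e-07 and 0.00826, at differences of 7.39, 6.45 and 7.13. None of these values is an independent result either.

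**Figure D1:**
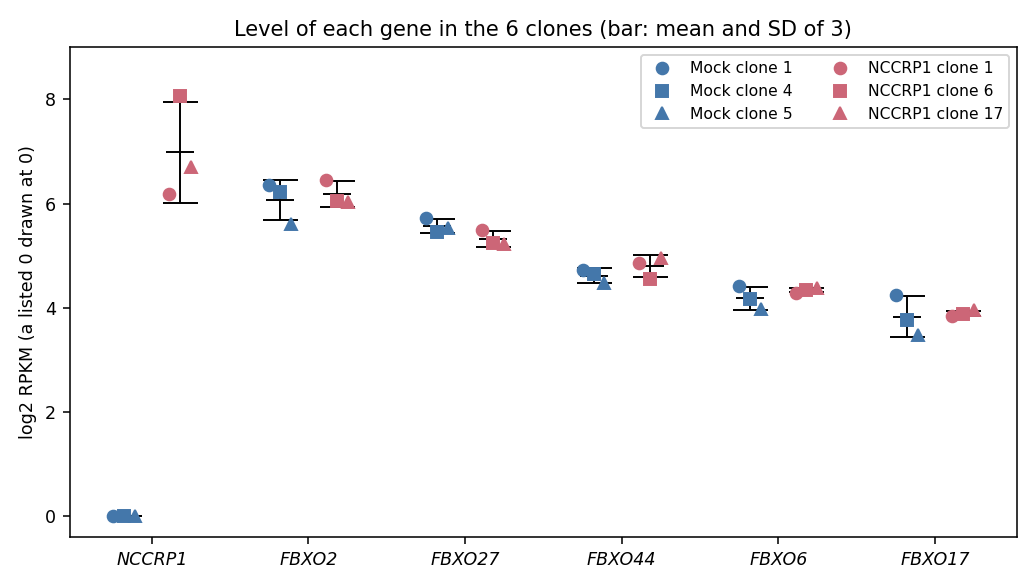
Log2 RPKM (vertical axis) of NCCRP1 and the 5 F-box genes in each of the 6 clones; points are libraries, bars the mean and SD of the 3 clones of a group. NCCRP1 lies at the listed 0 in the mock clones and at 6.19 to 8.07 in the NCCRP1 clones, while the groups overlap for each F-box gene.

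All 5 F-box genes were above 0 in every library, the mock clones included. Their order by mean was the same in both groups: FBXO2 highest, then FBXO27, FBXO44, FBXO6 and FBXO17, on a scale that is per length. Each neighbouring pair kept this order in 6 of 6 libraries. Length scaling removes no GC effect, and reads of the run shared by FBXO6 and FBXO44 fit both genes. Small gaps between genes are therefore uncertain. The ranges over the 6 libraries overlapped for FBXO2 and FBXO27 and for FBXO6 and FBXO17, and did not overlap for FBXO27 and FBXO44 or for FBXO44 and FBXO6. The mean gaps between neighbours were 0.68 ± 0.31, 0.74 ± 0.29, 0.44 ± 0.15 and 0.40 ± 0.12 on the log2 scale (SD, n = 6 libraries), in that order.

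FBXO2, the glycan-binding receptor best known from neurons and the inner ear, had log2 RPKM values of 6.36 (clone 1), 6.22 (clone 4) and 5.62 (clone 5) among the mock lines, against 6.46 (clone 1), 6.05 (clone 6) and 6.03 (clone 17) with NCCRP1. Mock clone 5 was the lowest and NCCRP1 clone 1 the highest library, and the groups overlapped. The level corresponds to 49.3 to 88.1 RPKM, above 86.8% to 92.4% of the genes detected in each library. The log2 difference between NCCRP1 and mock clones was 0.11 (SE 0.21, 95% interval -0.35 to 0.57, limma adjusted p = 0.971). This interval spans 0.787 to 1.48 times the mock level.

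FBXO27, a glycan-binding receptor linked to damaged lysosomes, had log2 RPKM values of 5.73 (clone 1), 5.46 (clone 4) and 5.53 (clone 5) among the mock lines, against 5.49 (clone 1), 5.24 (clone 6) and 5.22 (clone 17) with NCCRP1. It was the only 1 of the 5 with a lower mean in the NCCRP1 clones, where clones 6 and 17 lay below every mock clone and clone 1 lay among them. The log2 difference was -0.26 (SE 0.15, 95% interval -0.58 to 0.06, limma adjusted p = 0.777), or 0.67 to 1.04 times the mock level over the interval. It kept its sign under each of the 17 alternative settings, with values from -0.35 to -0.18, and passed the test under none of them.

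FBXO44, studied as a receptor for BRCA1, had log2 RPKM values of 4.73 (clone 1), 4.66 (clone 4) and 4.47 (clone 5) among the mock lines, against 4.87 (clone 1), 4.56 (clone 6) and 4.95 (clone 17) with NCCRP1. NCCRP1 clones 1 and 17 lay above all mock clones, but clone 6, which had the most NCCRP1, lay between mock clones 5 and 4. The log2 difference was 0.18 (SE 0.15, 95% interval -0.16 to 0.52, limma adjusted p = 0.904).

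FBXO6, which like FBXO2 binds high-mannose glycans, had log2 RPKM values of 4.42 (clone 1), 4.17 (clone 4) and 3.98 (clone 5) among the mock lines, against 4.29 (clone 1), 4.35 (clone 6) and 4.38 (clone 17) with NCCRP1. The NCCRP1 clones lay within the mock range, at an SD of 0.04 against 0.22 in mock. The log2 difference was 0.15 (SE 0.15, 95% interval -0.18 to 0.48, limma adjusted p = 0.928).

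FBXO17, the lowest of the 5 in RPKM, had log2 RPKM values of 4.25 (clone 1), 3.76 (clone 4) and 3.48 (clone 5) among the mock lines, against 3.85 (clone 1), 3.89 (clone 6) and 3.96 (clone 17) with NCCRP1. Here too the NCCRP1 clones lay inside the mock range, with an SD of 0.05 against 0.39. The log2 difference was 0.07 (SE 0.19, 95% interval -0.35 to 0.49, limma adjusted p = 0.989). Whether the spread of FBXO6 or FBXO17 differed between the groups was not tested.

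None of the 5 F-box genes passed limma's test, none reached an unadjusted p under 0.05 in the fit without a run term, as 7.33% of all tested genes did, and for none did the groups fail to overlap, as they did for 12.8% of tested genes (5.71% higher and 7.05% lower with NCCRP1). The intervals leave room for changes of up to about the sizes given, in either direction, and do not show that the genes were unaffected. Summed over the 5 genes the level was 202, 176 and 144 RPKM for mock clones 1, 4 and 5, against 197, 163 and 170 RPKM for clones 1, 6 and 17 of the other group, so the groups overlapped. In RPKM, NCCRP1 thus stood at 0.37, 1.65 and 0.619 times that sum in clones 1, 6 and 17. These ratios depend on the length taken for NCCRP1, and would be higher if the insert is shorter than that length.

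**Figure D2:**
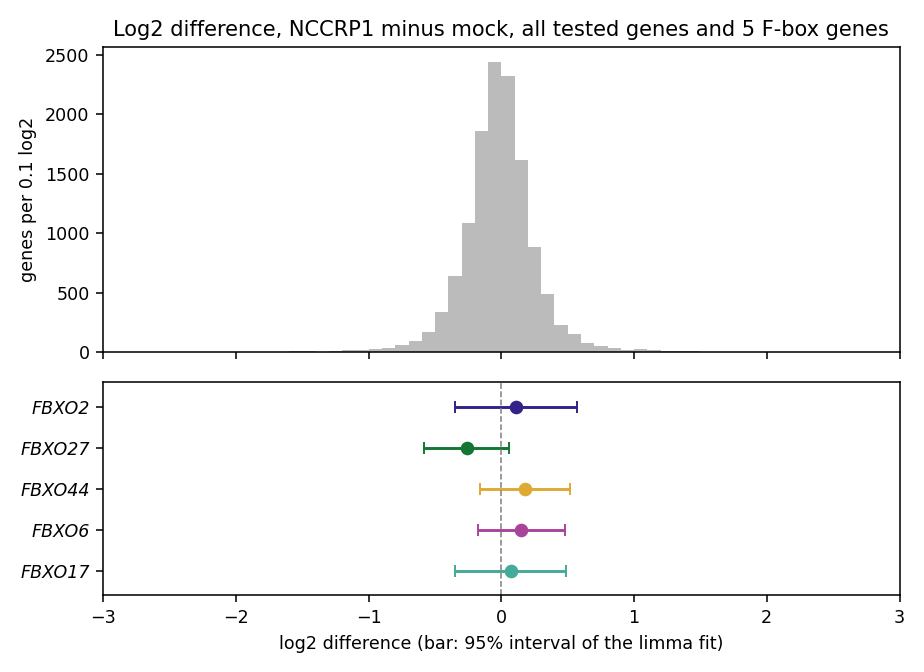
Upper panel, histogram of the log2 difference (NCCRP1 minus mock clones) over all tested genes but NCCRP1, which lies off the axis at 6.99 with a listed 0 taken as 0; lower panel, the difference of each F-box gene with the 95% interval of the limma fit. The 5 differences lie between -0.26 and 0.18, and every interval includes 0.

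The names under which the libraries were deposited carry a number, 15 or 14, which was read here as the sequencing run. The sample labels do not call it a run, so this reading is an assumption. Each of these runs held clones of both groups. Run 15 held mock clones 1 and 4 with NCCRP1 clone 1, and run 14 held mock clone 5 with NCCRP1 clones 6 and 17. Within run 15 the differences of FBXO2, FBXO27, FBXO44, FBXO6 and FBXO17 were 0.17, -0.10, 0.18, -0.00256 and -0.15. Within run 14 they were 0.41, -0.30, 0.29, 0.39 and 0.45. Once limma's model held a run term they were 0.29, -0.20, 0.24, 0.19 and 0.15, with limma adjusted p from 0.512 to 0.839. In that fit the unadjusted limma p of FBXO2 was 0.0487 and its adjusted p 0.512. The larger values of run 14 are set against mock clone 5 alone. Without that clone the differences of FBXO2 and FBXO17 turned to -0.11 and -0.10, and those of FBXO27, FBXO44 and FBXO6 were -0.28, 0.10 and 0.05. Without NCCRP1 clone 1 that of FBXO2 was -0.03.

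Mock clone 5 was the lowest library for FBXO2, FBXO6, FBXO17 and FBXO44, which lay 0.50, 0.29, 0.39 and 0.24 below their means over the 6 libraries. FBXO27 stood 0.08 above its mean there. The longest transcripts of the 5 genes have a GC content of 57.4% to 60.5%, which puts FBXO2 and FBXO17 in the highest of 5 equal GC classes of the genes detected in every library and the other 3 in the class below it. Over the GC-richest class of genes the median deviation was -0.18 in mock clone 5 and 0.15 in mock clone 1, and over the GC-poorest class it was 0.28 and -0.19. The median of the 5 F-box genes was -0.29 and 0.23 in the same libraries. With each library's GC trend removed, a setting chosen after seeing the data, the differences of FBXO2, FBXO27, FBXO44, FBXO6 and FBXO17 were 0.15, -0.24, 0.20, 0.17 and 0.10, and none passed.

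**Figure D3:**
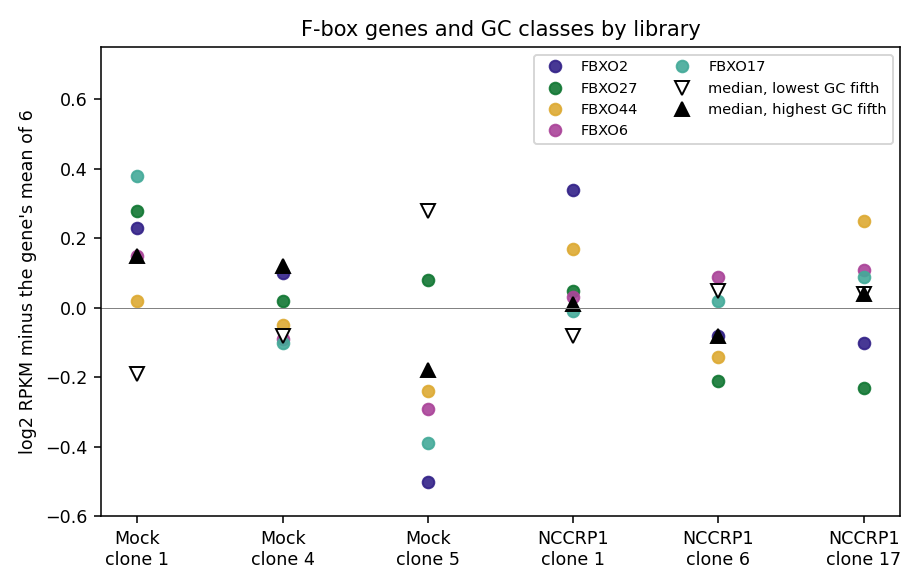
Log2 RPKM of each F-box gene minus its own mean of 6 libraries (vertical axis) in each clone, with the median of the GC-poorest (open triangles) and GC-richest (filled triangles) of 5 classes of genes detected in every library. In mock clone 5 the GC-richest genes lie at -0.18 and 4 of the 5 F-box genes between -0.50 and -0.24.

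The second comparison used the spread of the transgene. NCCRP1 rose in the order clone 1, clone 17, clone 6, over 1.89 log2 units. None of the 5 F-box genes had that order over the 3 clones, and none had its reverse, as 17.6% and 13.8% of all tested genes did. With 5 genes this is no result about the family. FBXO2 and FBXO27 were highest in clone 1 and missed the reverse order narrowly. Their log2 RPKM in clones 17 and 6 was 6.03 and 6.05 for FBXO2, and 5.22 and 5.24 for FBXO27. FBXO2 stood 0.39 above the mock mean in clone 1 and 0.04 and 0.02 below it in clones 17 and 6. FBXO44 stood 0.26 and 0.34 above it in clones 1 and 17 and 0.05 below it in clone 6. FBXO6 and FBXO17 varied by 0.09 and 0.11 over the 3 clones, while NCCRP1 varied 3.7-fold.

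A limma fit with group and, within the NCCRP1 clones, the centred log2 level of NCCRP1 gave a slope per doubling of NCCRP1 for every other tested gene. The slopes were -0.17 for FBXO2 (95% interval -0.59 to 0.24), -0.10 for FBXO27 (-0.40 to 0.19), -0.19 for FBXO44 (-0.48 to 0.11), 0.02 for FBXO6 (-0.30 to 0.34) and 0.01 for FBXO17 (-0.40 to 0.41). All 5 had a limma adjusted p of 1.0. Of 12736 genes 0 passed, or 0.0%, and 503 (3.95%) had an unadjusted p under 0.05 in limma. A slope rests on 3 clones, of which the lowest, clone 1, was the only 1 from run 15. With a run term the slope of FBXO2 turned to 0.08, and those of FBXO27, FBXO44, FBXO6 and FBXO17 were -0.05, -0.16, 0.10 and 0.14.

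**Figure D4:**
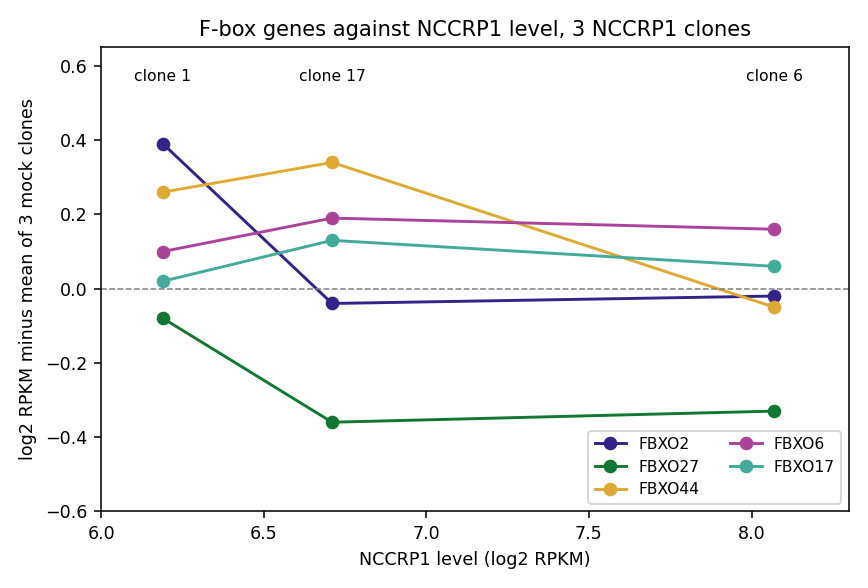
Log2 RPKM of each F-box gene minus its mock mean (vertical axis) against the log2 RPKM of NCCRP1 (horizontal axis) in NCCRP1 clones 1, 17 and 6; lines join the values of 1 gene. No gene rises or falls through all 3 clones, and FBXO6 and FBXO17 stay within 0.11 across them. FBXO2 and FBXO27 are highest in clone 1 and nearly level between clones 17 and 6.

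Over all tested genes 17.6% had the order of NCCRP1 in the 3 clones and 13.8% the reverse. The 5 genes with the lowest p of the slope fit did not pass either. CFB, which encodes complement factor B, had log2 RPKM 1.62, 2.32 and 1.53 for mock clones 1, 4 and 5 against 2.87, 5.59 and 4.27 for clones 1, 6 and 17 of the other group, with a slope of 1.35 (SE 0.23, limma adjusted p = 0.365). The other 4 ran the other way: MIR103A1 (slope -1.22), the histone variant gene MACROH2A2 (-1.47), MIR378A (-1.18) and MIR200C (-0.98), at limma adjusted p from 0.0973 to 0.365. MACROH2A2 was listed at 0 in clone 6, and reads of the microRNA genes can come from host transcripts.

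Genes with the listed pattern of NCCRP1, at 0 in each mock clone and above 0 in each NCCRP1 clone, numbered 21 with NCCRP1 itself, and 31 genes had the opposite pattern. The 5 with the highest mean after NCCRP1 were all close to the listing limit. The antisense RNA gene STEAP1B-AS1 was at 0.89, 1.60 and 1.18 in NCCRP1 clones 1, 6 and 17 and had the order of NCCRP1 as well. CCN2, CXCL1, MIR339 and LINC02541 had means of 0.90, 0.78, 0.83 and 0.82. These genes were chosen by their pattern, so their values are a description with no test. NCCRP1 itself had a mean of 6.99.

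The 5 F-box genes were also compared with one another over the 6 libraries, in 10 pairs. FBXO6 and FBXO17 had the same order of libraries (Pearson r = 0.92, exact permutation p = 0.00139, adjusted over the 10 pairs 0.0139; Spearman rho = 1.0, exact permutation p = 0.00278, adjusted 0.0278; n = 6). Without mock clones 4 and 5, the farthest from the median of FBXO6, r was 0.85. The pair no longer passed with each library centred on its median (r = 0.94, adjusted exact permutation p = 0.0556) or with the GC trend removed (r = 0.85, adjusted exact permutation p = 0.306). Each run and each group holds 3 libraries, too few for a value within them. No other pair passed, including the head-to-head pair FBXO2 and FBXO44 (Pearson r = 0.60, exact permutation p = 0.204, adjusted 0.408; Spearman rho = 0.43, exact permutation p = 0.419, adjusted 0.705; n = 6), whose r was -0.20 without mock clone 5 and NCCRP1 clone 1.

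Likeness was also measured as the root mean square difference of centred log2 values over the 6 libraries. FBXO17 was the 244th nearest gene to FBXO6 by that measure, at 0.109 against a median of 0.265 over all genes. From the other side, FBXO6 was the 36th nearest to FBXO17, against a median of 0.323. The nearest to FBXO6 were FGFR4 (0.0306), DNAJC17 (0.0382) and ACTB (0.0414). Nearest to FBXO2 were RPL10A, TXNDC17 and RPS7, nearest to FBXO17 were MVB12A, RPL23AP82 and CBX2, nearest to FBXO27 were TRIM39, TXNL4A and CERS4, and nearest to FBXO44 were USF1, SMOX and AMPD2, all at 0.0353 to 0.0627. These genes share the libraries and their depth with the F-box genes.

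The neighbours of the 6 genes, 10 protein-coding genes on each side, were counted whatever their values. Around NCCRP1, 10 neighbours were tested, with a median log2 difference of 0.005 and none passing. PAK4, the kinase gene next to NCCRP1 on 1 side, ranged over 4.97 to 5.16 (log2 RPKM) without and 4.98 to 5.07 with the transgene, and SYCN and IFNL3 on the other side were listed at 0 in all 6 libraries. The medians were -0.072 over 10 tested neighbours of FBXO17 and FBXO27 and 0.021 over 14 of FBXO2, FBXO44 and FBXO6, beside -0.016 over all tested genes, and none passed. The neighbours of NCCRP1 with the lowest p were SAMD4B (log2 difference -0.21), SIRT2 (-0.23), ZFP36 (0.17) and MED29 (-0.08). SAMD4B, SIRT2, LGALS4 (-0.28) and HNRNPL (-0.10) led the neighbours of FBXO17 and FBXO27, and DISP3 (0.33), SRM (-0.29), AGTRAP (0.23) and PLOD1 (0.19) those of the chromosome 1 genes.

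The machinery that F-box proteins plug into was followed through 5 gene lists, in which no gene passed in either direction. The share of genes whose groups did not overlap is given for each list, to be set beside 12.8% of all tested genes (5.71% higher and 7.05% lower with NCCRP1). Among SCF core and neddylation genes 25 of 26 were tested, 10 with a higher and 15 with a lower mean in NCCRP1 clones (median -0.004, 8.0% without overlap). CDC34, the ubiquitin-conjugating enzyme that works with SCF ligases, had the lowest p: mock clones 1, 4 and 5 had log2 RPKM 5.72, 5.40 and 5.21, below 6.05, 6.02 and 5.74 for clones 1, 6 and 17 of the other group (log2 difference 0.49, SE 0.17, limma adjusted p = 0.467). COPS7A, UBA3 and COPS6 had differences of 0.27, 0.27 and -0.19. Whether the chromosomal neighbours of CDC34 shifted alike, whatever their function, was not tested.

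Glycoprotein quality control and ERAD genes, which act on the glycoproteins that FBXO2 and FBXO6 recognise, had 11 higher and 14 lower means among 25 tested (median -0.042, 12% without overlap). HERPUD1, an ERAD component of the ER membrane, had a difference of -0.46 (SE 0.18, limma adjusted p = 0.592), and EDEM2 and UGGT2 had differences of 0.30 and -0.46. Among 9 reported substrates of the FBA-type F-box proteins 3 had a higher and 6 a lower mean (median -0.161, 22.2% without overlap, 1 gene in each direction, beside 12.8% of all tested genes). LAMP1, a lysosomal membrane glycoprotein, had log2 RPKM values of 7.35 (clone 1), 6.92 (clone 4) and 7.19 (clone 5) among the mock lines, against 6.83 (clone 1), 6.56 (clone 6) and 6.46 (clone 17) with NCCRP1 (log2 difference -0.53, SE 0.17, limma adjusted p = 0.428). ERO1A, BACE1 and INSR had differences of 0.32, -0.28 and -0.27. For LAMP1, too, a shift shared with its chromosomal neighbours was not tested.

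Of 61 other F-box genes in the files 50 were tested, 19 with a higher and 31 with a lower mean (median -0.018). For 6 of them the groups were apart (12%), each time lower in the NCCRP1 clones, beside 7.05% of all tested genes that were apart and lower. Those with the lowest p were FBXL2 (log2 difference -0.63), FBXO9 (-0.44) and FBXW9 (-0.41), at limma adjusted p from 0.522 to 0.63. FBXL2 lay close to the listing limit, with means of 1.09 in mock and 0.46 in NCCRP1 clones. The differences of the 5 FBA-type genes, from -0.26 to 0.18, lay within the range of the other F-box genes, from -0.63 to 0.47.

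Suprabasal squamous genes, from the layers where NCCRP1 is normally expressed, were mostly without a value above 0: 15 of 24 were listed at 0 in all 6 libraries, which does not show that they were silent, and 8 were tested (median -0.014, 12.5% without overlap). TGM1, the transglutaminase of the cornified envelope, had log2 RPKM 4.01, 3.81 and 3.34 for mock clones 1, 4 and 5, above 2.71, 3.09 and 2.78 for clones 1, 6 and 17 of the other group (log2 difference -0.86, SE 0.20, limma adjusted p = 0.217). EMP1 had a difference of 0.74 (limma adjusted p = 0.535), and KRT10 and SLURP1 had differences of 0.29 and -0.25. SLURP1 lay close to the listing limit and was listed at 0 in mock clone 5 and in NCCRP1 clones 6 and 17.

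**Figure D5:**
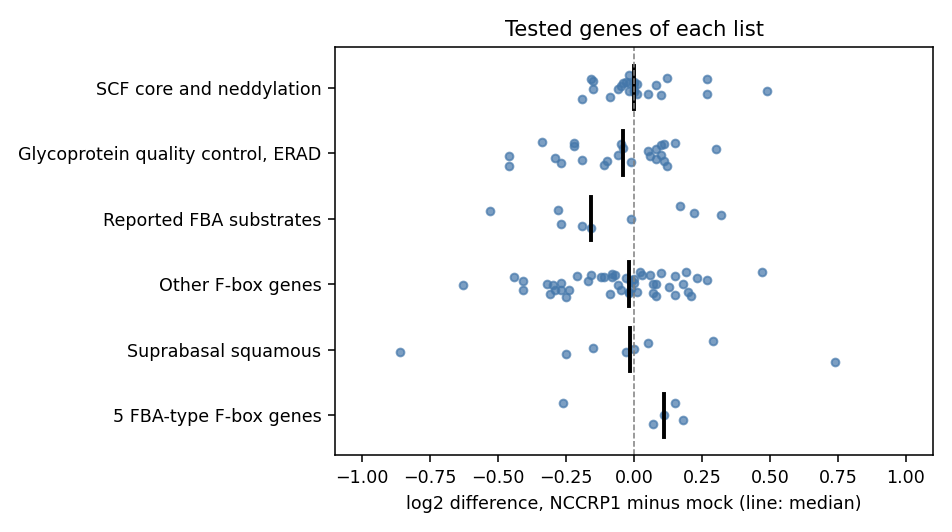
Log2 difference (NCCRP1 minus mock clones, horizontal axis) of every tested gene in 5 gene lists and of the 5 FBA-type F-box genes; points are genes, vertical spread is for visibility, and black lines are medians. The medians lie between -0.161 and 0.111.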

How the data were processed

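The deposited tables give a value headed RPKM, per the file headers, for 40448 Entrez gene IDs in each of 6 libraries. The authors had put these values on a log2 scale: raised as powers of 2 and multiplied by transcript length in kilobases they summed to 1130000 to 1150000 per library, against at least 12000000 for natural logarithms. No value lay below 0. Per the submitters' processing notes, the build was hg19 and bedtools 2.25.0 was among the tools, with no role stated, and no aligner is named in the sources used here. Of the microRNA values under 8 steps, 24.6% to 34.3% lay within 0.005 of a whole read at the depths quoted, where 1% would by chance for a step not chosen to fit; depths were searched from 8000000 to 24000000, and multiples outside are possible. Too few values were whole to recover counts, so no count model was run, although one was planned had the files held counts.

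Genes above 0 in at least 3 of 6 libraries went unchanged into limma 3.58.1 (R 4.3.3, trend and robust empirical Bayes, two-sided, threshold 0.05), with no pseudocount; log2(RPKM + 1) and log2(RPKM + 0.1) were alternatives. The fits were also run on simulated data with independent errors for each gene and no run or GC effect. That run does not show how the fits behave under such shifts. Coding sequences (GENCODE 29, principal transcripts) were aligned by codon with MAFFT 7.526. Symbols, gene order and overlaps came from RefSeq (GRCh38.p14), whose coordinates are not given because the build differs. The named genes were the 6 members, the 5 nearest to the listed pattern of NCCRP1, the 3 nearest to each F-box gene, the 5 lowest p of the slope fit and up to 4 lowest p per list, some of which are not reported here; TPT1, UBB and the genes adjacent to NCCRP1 were named outside this rule, after their values were seen. Genes and lists were chosen with earlier results of these data known.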

Additional observations from a re-analysis of the deposited data

How the results depend on the processing

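The count of 13 genes that differed between the groups was 4 with log2(RPKM + 1), 1 with log2(RPKM + 0.1), 3 with no filter (genes at 0 throughout cannot be tested), 7 among genes above 0 in all 6 libraries, 5 with robust=FALSE, 2 with the run as a term, 2 with a listed 0 as missing and 4 with the GC trend removed. Leaving out 1 clone gave 0 (without mock clone 5, with 1363 genes at an unadjusted p under 0.05 in limma) to 29 genes (without NCCRP1 clone 1), and 0 to 1 of the 6 members. In the group fit the count was 16 at a mean log2 RPKM of at least 1. It was 13 with libraries centred on the median and 10 with quantile normalization. The slope fit gave 1 gene with log2(RPKM + 1) and 0 to 4 with 1 clone left out. NCCRP1 has no mock value with a listed 0 as missing and is not among genes above 0 in all libraries, so neither setting tests it.

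No F-box gene passed under any alternative run. With 1 clone left out, the difference of FBXO2 ran from -0.11 (without mock clone 5) to 0.25 and was -0.03 without NCCRP1 clone 1, and that of FBXO17 ran from -0.10 (without mock clone 5) to 0.28. Slopes then ran from -0.82 to 0.01 for FBXO2, -0.02 to 0.16 for FBXO6, -0.05 to 0.20 for FBXO17 and -0.52 to 0.02 for FBXO27, with the turned sign without NCCRP1 clone 1, and from -0.29 to 0.15 for FBXO44, turned without NCCRP1 clone 6. The slope of FBXO2 also turned with the run as a term (0.08), and that of FBXO17 with quantile normalization (-0.00821) and per 100 RPKM of NCCRP1 (-0.00119). The cause was not tested. Leaving out a clone of a group of 3 leaves 2, or a slope through 2 clones.

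No paired analysis was possible because the groups share only clone number 1, which does not mark a shared source. The GC setting and the settings for correlations were chosen after seeing the data.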
